A study of Mus musculus with 8 samples.

Results

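The chromatin around 10 genes that control withdrawal from the cell cycle was examined in lens epithelium and lens fibers: the cyclin-dependent kinase inhibitors Cdkn1a, Cdkn1b, Cdkn1c and Cdkn2c, the D-type cyclins Ccnd1, Ccnd2 and Ccnd3, and the pocket proteins Rb1, Rbl1 and Rbl2. The genes were chosen by name, out of 21000 protein-coding genes with a curated RefSeq start site on GRCm38. For each gene, a window was set as its gene body plus 50 kb on each side, and every peak that overlapped the window was taken. The 10 windows cover 1.40 Mb, none overlaps another, and they hold 252 of the 185368 accessible regions formed by merging the lists of all 4 groups. The data are ATAC-seq, in which the transposase Tn5 inserts sequencing adaptors into open chromatin. Lenses of CD1 mice, an outbred stock, were microdissected into epithelium and fibers at E14.5, in the embryo, and at P0.5, just after birth, which gives 4 groups with 2 libraries in each, every library from several pooled lenses. No group carried an engineered allele or a treatment. The 2 libraries of a group had been pooled before peaks were called, so each group is 1 list of peaks, no value has a replicate error, and no difference between groups could be tested.

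Lens fiber cells arise from the epithelium: cells leave the cell cycle near the lens equator, elongate and accumulate crystallins. D-type cyclins activate Cdk4 and Cdk6, which phosphorylate the retinoblastoma family proteins and release E2F factors, and this commits a cell to DNA synthesis. The inhibitors of the Cdkn1 family bind cyclin-kinase complexes, the Cdkn2 family binds Cdk4 and Cdk6, and the pocket proteins hold E2F target genes silent. Loss of Rb1, or of Cdkn1b together with Cdkn1c, is known to leave lens fiber cells cycling.

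Accessibility is given here as the rank of a peak by fold enrichment within its own list, in percent of that list, so that a small number means a strong peak. At E14.5 the lists held 100003 peaks in epithelium and 123743 in fibers, and at P0.5 they held 58592 and 62995. A promoter peak is the strongest peak within 2 kb of a curated start site. Because lists of different length and composition give different ranks to the same gene, each promoter peak was also placed among the promoter peaks of all genes. This second measure, the place among genes, is a percent of all 21000 genes in which 0 is the top. Genes without a promoter peak have no place, so the scale ended at 63.9% to 71.1% in the 4 lists, and the median gene with a peak was at 30.2% to 35.5%. Only 102 distinct fold enrichments occurred in P0.5 fibers, against 506 in E14.5 fibers, so many peaks shared a rank there: 1537 peaks shared the rank of the Cdkn1a and Cdkn1b promoters in P0.5 fibers, and 5235 shared that of Ccnd2. A q value under 0.001 was reached by 48.9% of the peaks of P0.5 fibers and by 80.5% to 87.9% of those of the other lists. The tissue labels were checked on markers. Of 7 fiber markers (such as Mip, the lens aquaporin, and Bfsp1, a beaded filament protein) 6 had a promoter peak in every list, with a median place of 15.9% and 21.1% in the fibers of the 2 stages against 41.9% and 51.5% in epithelium. The seventh, Dnase2b, had none in any list. All 5 epithelial markers had a promoter peak in every list, and their median place differed little between epithelium (38.4% and 28.7%) and fibers (40.9% and 30.2%) of the same stage. Of the 4 markers each of retina with pigment epithelium and of blood, Tyr, Ptprc and Hba-a1 had no promoter peak in any list.

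The sequences below show the start sites that the promoter results turn on, from RefSeq (GRCm38.p6), each running from 250 bases before to 50 bases after a start site in the direction of transcription. They were chosen after their peaks had been seen: a start site of Cdkn1a without a peak, the start site of the same gene with one, the Cdkn2c promoter with its E2F match, and the internal start of Ccnd3. Capitals mark matches to 12 consensus motifs, searched on both strands: TTCCCGC and its second form TTGGCGC for E2F, TTTGAA for the cell cycle homology region CHR, GGGCGG for Sp/KLF factors, CCGGAAG for ETS factors, CACGTG for the E-box, TGCTGA for Maf factors, GGAATG for Tead factors, CATTGT for Sox factors, TGTTTAC for Fox factors, AGATAA for Gata factors, TGACTCA for AP-1, and the p53 consensus as a pair of half-sites with at most 13 bases between them. No motif in this set contains another, though matches may overlap at their ends.
Cdkn1a upstream start, chr17:29090729-29091028 (+): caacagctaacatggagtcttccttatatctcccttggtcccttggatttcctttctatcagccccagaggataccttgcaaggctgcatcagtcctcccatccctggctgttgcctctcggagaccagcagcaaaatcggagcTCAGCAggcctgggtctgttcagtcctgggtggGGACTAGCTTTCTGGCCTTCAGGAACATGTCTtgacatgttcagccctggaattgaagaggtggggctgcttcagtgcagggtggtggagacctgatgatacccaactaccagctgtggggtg
Cdkn1a downstream start, chr17:29093519-29093818 (+): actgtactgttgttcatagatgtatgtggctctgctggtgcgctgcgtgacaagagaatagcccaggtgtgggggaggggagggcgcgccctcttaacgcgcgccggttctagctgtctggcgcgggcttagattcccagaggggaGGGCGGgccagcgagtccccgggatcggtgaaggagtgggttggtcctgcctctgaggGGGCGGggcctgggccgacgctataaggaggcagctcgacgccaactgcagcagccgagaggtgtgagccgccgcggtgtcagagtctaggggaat
Cdkn2c, chr4:109666707-109667006 (-): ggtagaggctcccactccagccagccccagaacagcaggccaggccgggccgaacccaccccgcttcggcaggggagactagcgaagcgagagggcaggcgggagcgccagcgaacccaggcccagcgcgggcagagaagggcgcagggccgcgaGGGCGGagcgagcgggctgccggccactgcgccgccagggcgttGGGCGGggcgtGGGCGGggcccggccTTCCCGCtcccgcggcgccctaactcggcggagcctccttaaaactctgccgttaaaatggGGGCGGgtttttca
Ccnd3 internal start, chr17:47593217-47593516 (+): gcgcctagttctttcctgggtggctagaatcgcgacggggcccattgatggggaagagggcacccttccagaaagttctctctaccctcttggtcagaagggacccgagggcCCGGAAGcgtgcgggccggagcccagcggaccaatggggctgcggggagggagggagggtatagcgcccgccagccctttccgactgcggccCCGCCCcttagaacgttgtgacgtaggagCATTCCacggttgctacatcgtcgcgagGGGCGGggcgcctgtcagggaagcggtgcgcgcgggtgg

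In the upstream Cdkn1a promoter the capitals are a Maf match that begins at -106 from the start site and a p53 match of 32 bases that begins at -73. The p53 consensus was matched by 24 of the 32851 promoters of the table (0.0731%), of which this is 1. No peak of any list overlapped that window. At the downstream start, 2 Sp/KLF matches begin at -104 and -46. The Cdkn2c promoter holds an E2F match at -25 and 4 Sp/KLF matches. E2F letters occurred in 6.81% of all promoters of the table and Sp/KLF letters in 35.7%. In the internal Ccnd3 promoter the capitals are an ETS match at -138, a Tead match at -17 and 2 Sp/KLF matches. The table held 9 promoters of 6 members (Cdkn1a, Cdkn1b, Cdkn2c, Ccnd3, Rbl1 and Rbl2), and 7 of the 9 contained Sp/KLF letters.

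All 10 genes had a promoter peak in all 4 lists. Of all protein-coding genes, 70.3% had one in the epithelium and 71.2% in the fibers of E14.5, 67.0% in the epithelium and 64.6% in the fibers of P0.5, and 60.6% had one in all 4. At E14.5 the promoter peaks of the regulators were strong: their median rank was 5.37% in epithelium and 4.14% in fibers, against medians of 7.68% and 6.10% over all genes with a promoter peak, and 7 of 10 ranked above the median gene in each tissue. At P0.5 the median rank was 15.2% in epithelium and 14.2% in fibers, against 12.8% and 10.3% over all genes, and 4 of 10 ranked above the median gene. These ranks move with the length of a list: with equal numbers of peaks the regulators' medians were 9.17% and 8.75% at E14.5 and 15.2% in each tissue at P0.5, and with a q value under 0.001 the median in P0.5 fibers was 29.0%. On the place among genes the regulators had a median of 26.2% and 25.7% in E14.5 epithelium and fibers and of 37.4% and 38.1% at P0.5. The median gene with a promoter peak was at 35.0% and 35.5% at E14.5 and at 32.8% and 30.2% at P0.5, so the regulators' median was nearer the top than that gene at E14.5 and farther from it at P0.5.

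**Figure D1:**
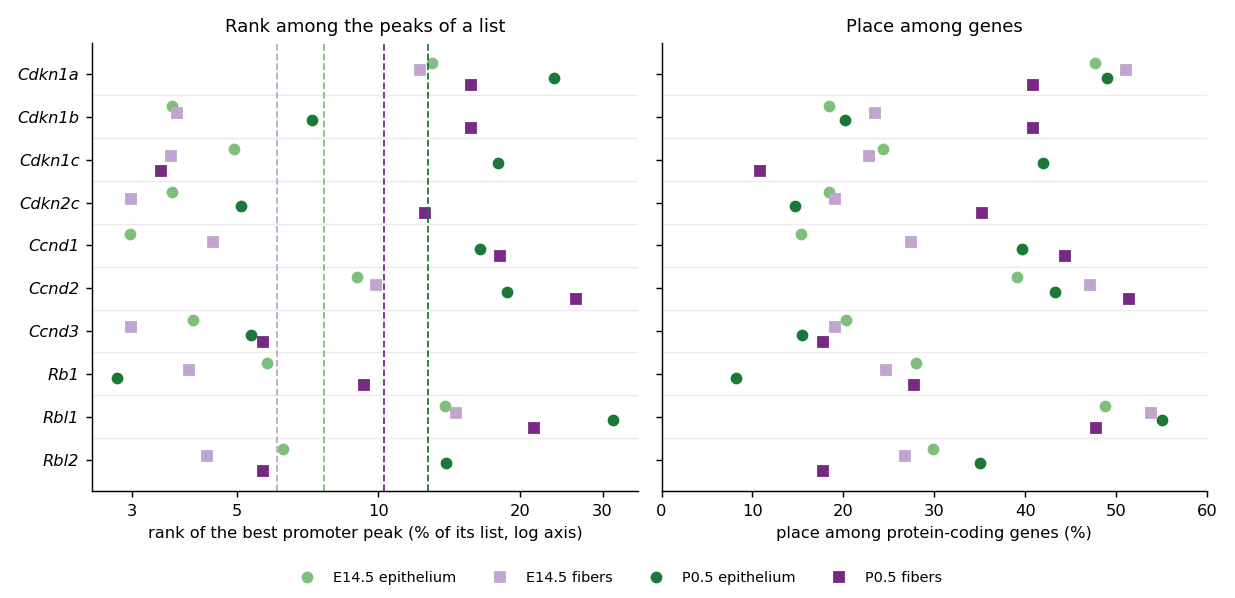
Rank of the best promoter peak in percent of its list (left, log axis, dashed lines at the all-gene medians of 7.68%, 6.10%, 12.8% and 10.3%) and place among protein-coding genes in percent (right) for the 10 regulators, 1 symbol for each pooled list, circles for epithelium and squares for fibers. Cdkn1c stands at 18% of P0.5 epithelium and near 4% of both fiber lists, and the 4 symbols of Ccnd3 lie close together.

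Among the kinase inhibitors, Cdkn1c, an imprinted gene whose product p57 binds cyclin-Cdk2 complexes (chr7:143458339-143461059), differed most between tissues. Its promoter peak ranked at 4.95% and 3.63% in epithelium and fibers at E14.5 and at 18% and 3.45% at P0.5, with the P0.5 epithelium list standing apart from the other 3. In place among genes it went from 42.0% in P0.5 epithelium to 10.8% in P0.5 fibers, a difference, fibers minus epithelium, of -31.2 points, where a negative value is nearer the top. Of the 12836 genes with a promoter peak in both lists, 0.654% were as low or lower. At E14.5 the corresponding difference was -1.54 points. With other promoter widths and with all transcripts, the alternatives that can move it, the P0.5 difference lay between -32.4 and -30.7 points.

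Cdkn1b, which encodes p27 (chr6:134920401-134925525), and Cdkn2c, which encodes the Cdk4 and Cdk6 inhibitor p18 (chr4:109660876-109666756), went the other way. The Cdkn1b promoter ranked at 3.64% and 3.74% in E14.5 epithelium and fibers, at 7.24% in P0.5 epithelium and at 15.7% in P0.5 fibers. The Cdkn2c promoter ranked at 3.64%, 2.98%, 5.12% and 12.6% in the same order. Both were thus among the stronger promoters in 3 lists and weakest in P0.5 fibers. Their place among genes in P0.5 fibers was 20.7 points (Cdkn1b) and 20.5 points (Cdkn2c) farther from the top than in P0.5 epithelium, a shift that 4.75% and 4.92% of genes matched or exceeded. Of the other 9 members, Cdkn2c had the ranks most like those of Cdkn1b, with a mean absolute difference of 1.5 points over the 4 lists. In P0.5 fibers no peak covered either start site of Cdkn2c itself, and its best promoter summit lay at -237 bases.

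Cdkn1a, which encodes the p53 target p21 (chr17:29090979-29100722), had the weakest promoter of the 4 inhibitors in 3 of the lists and tied with Cdkn1b in P0.5 fibers. It ranked at 13% and 12.3% in epithelium and fibers at E14.5 and at 23.6% and 15.7% at P0.5, and its place among genes stayed between 40.9% and 51.1%. All of these peaks lay within 2 kb of the downstream start. In E14.5 fibers the peak at 12.3% did not cover that start, and its summit lay 1840 bases downstream of it. A peak covered the downstream start in each of the 4 lists, at 13%, 16.6%, 23.6% and 15.7%. The upstream start, whose sequence with the p53 match is printed above, was covered by no peak, and within 2 kb of it only E14.5 fibers had 1 peak, at 71.6%.

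Of the D-type cyclins, Ccnd3 (chr17:47505051-47599689) has 2 curated start sites. The internal start was covered by a peak ranking at 4.04%, 2.98%, 5.37% and 5.69%, in the same order of lists, a spread of 2.71 points of rank. On the place among genes its spread was 4.86 points, and on either measure no other member spread less. The upstream start ranked lower throughout, with best peaks within 2 kb at 10.7%, 13.6%, 26.3% and 48.9%, and in P0.5 fibers no peak covered it.

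The Ccnd1 promoter (gene at chr7:144929931-144939831) ranked at 2.96% and 4.46% in epithelium and fibers at E14.5 and at 16.5% and 18.2% at P0.5, so that both P0.5 lists were well below both E14.5 lists. Its place in epithelium moved 24.3 points away from the top between stages, which 0.693% of genes matched or exceeded, and in fibers 16.9 points, which 3.88% matched or exceeded. These sizes depend on the promoter width: with 1 kb they were 11.4 points in epithelium and 5.79 in fibers, and with 5 kb 5.40 in fibers. In 3 lists the strongest summit was not at the start site but upstream, at -1806, -1806 and -1720 bases. The peak over the start site itself ranked at 8.38%, 6.76%, 23.6% and 18.2%. With promoters limited to 1 kb, or widened to 5 kb, the small P0.5 difference of Ccnd1 between tissues, 4.69 points farther from the top in fibers, changed sign.

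For Ccnd2 (chr6:127125162-127152188) the ranks were 9.01%, 9.88%, 18.8% and 26.4%. The all-gene median rank was also lower at P0.5, and in place among genes Ccnd2 moved 4.10 points away from the top in epithelium and 4.29 in fibers, which 29.6% and 25% of genes matched or exceeded. Here, too, the strongest summit lay upstream of the curated start in 3 lists, at -1556, -1556 and -1550 bases, and 384 bases downstream in P0.5 fibers, and the region that holds it also overlaps the promoter of 9330179D12Rik, a neighbouring noncoding gene. In P0.5 fibers no peak covered the curated start of Ccnd2.

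Of the pocket proteins, Rb1 (chr14:73192858-73325951) reached its best rank in P0.5 epithelium. It ranked at 5.80% and 3.96% in epithelium and fibers at E14.5 and at 2.78% and 9.32% at P0.5, and the 2.78% is the strongest promoter of the 10 genes in that list. Its place in epithelium at P0.5 minus that at E14.5 was -19.7 points, and 3.05% of genes were as low or lower. At P0.5 the place in fibers was 19.5 points farther from the top than in epithelium, while the difference at E14.5 was -3.30 points. Rbl2 (p130, chr8:91070057-91123844), the pocket protein best known from resting cells, showed the reverse at P0.5. Its ranks were 6.26%, 4.32%, 13.9% and 5.69%, with a place difference of -17.3 points between fibers and epithelium at P0.5, and the member closest to it was Cdkn1c, at a mean absolute difference of 2.07 points. Rbl1 (p107, chr2:157145893-157204534), known from cycling cells, had the weakest promoter of the 10 genes in 3 of the 4 lists, at 13.8%, 14.6%, 31.6% and 21.4%. On the place among genes its 4 values lay within 7.23 points of each other, against 31.2 points for Cdkn1c.

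The direction of the tissue difference can be set beside that of all genes. At E14.5, 4 of the 10 regulators (Cdkn1c, Ccnd3, Rb1 and Rbl2) were placed nearer the top in fibers than in epithelium, against 50.8% of genes. At P0.5, 4 of 10 were (Cdkn1a, Cdkn1c, Rbl1 and Rbl2), against 55.2%. From the earlier to the later stage, 3 of 10 moved nearer the top in epithelium, against 51.7% of genes, and 5 of 10 in fibers, against 58.6%. These 4 comparisons share lists with each other. The regulators did not share 1 direction in any of them. Taken one by one, the tissue difference of Cdkn1c at P0.5 minus that at E14.5 was -29.6 points, and 78 of the 12727 genes with a promoter peak in all lists (0.613%) were as low or lower. For Rb1 it was 22.8 points, for Cdkn2c 19.9 and for Cdkn1b 15.6, values that 2.27%, 3.61% and 7.28% of genes matched or exceeded. The pooled lists hold no value per library, so these differences could not be set against the spread between replicates.

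**Figure D2:**
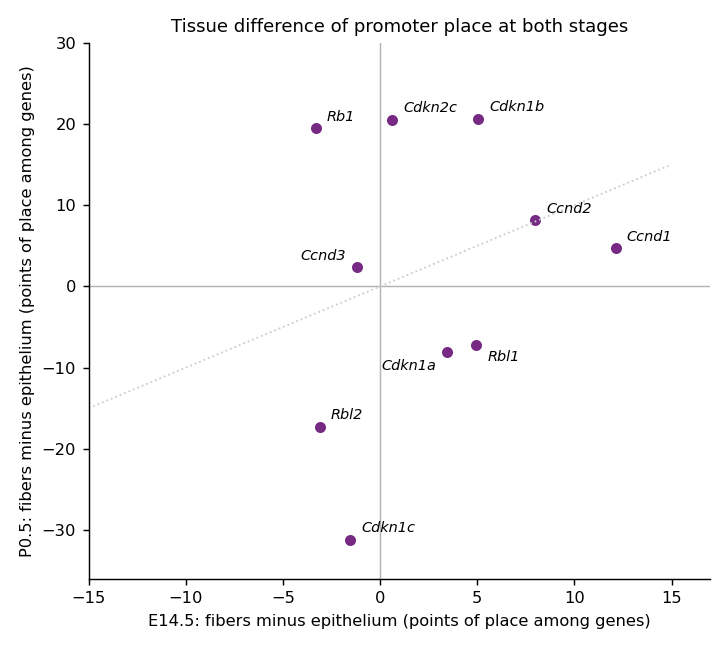
Difference in promoter place among genes, fibers minus epithelium in points, at E14.5 (horizontal axis) and P0.5 (vertical axis) for the 10 regulators, 1 point for each gene from the pooled lists, with negative values nearer the top in fibers and a dotted line where both stages are equal. Cdkn1c lies lowest at -31.2 points at P0.5, and Cdkn1b, Cdkn2c and Rb1 lie near 20 points at P0.5.

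The rest of the pathway was described by 24 further genes (other Cdkn2 inhibitors, Cdk2, Cdk4, Cdk6, cyclins E, E2F and DP factors, the MuvB subunits Lin9, Lin37, Lin52 and Lin54, Skp2 and Cdc25a). All 24 had a promoter peak in all 4 lists, as did 60.6% of all genes, with median ranks of 4.69% and 4.81% in epithelium and fibers at E14.5 and of 7.97% and 10.8% at P0.5, where the all-gene medians were 7.68%, 6.10%, 12.8% and 10.3% in the same order. In fibers, 8 of the 24 were placed nearer the top than in epithelium at E14.5 and 10 of 24 at P0.5, against 50.8% and 55.2% of all genes. With time, 12 of 24 moved nearer the top in epithelium and 11 of 24 in fibers, against 51.7% and 58.6%. On rank within a list, which moves with the list's length, the largest spread belonged to Cdk2 (4.95% in E14.5 epithelium to 34.7% in P0.5 fibers, a promoter it shares with the pigment gene Pmel), followed by E2f2, Cdk6, Lin9 and E2f7. E2f7, a repressor of the E2F family, ranked at 0.698% in epithelium and 14.0% in fibers at P0.5. On the place among genes E2f7 spread over 39.3 points and Cdk2 over 30.5. Chosen after their values were seen, E2f3 and Cdkn2d (p19) had the strongest promoters of the list at E14.5, at 0.0290% and 0.0860% in epithelium and 0.0574% and 0.0509% in fibers.

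At E14.5 the windows held 165 peaks in epithelium and 167 in fibers, and at P0.5 they held 95 and 116. With a q value under 0.001 the order of the tissues at P0.5 turned, with 79 peaks in epithelium and 63 in fibers, and at E14.5 each tissue had 146. With equal numbers of peaks in every list the counts were 99 and 96 at E14.5 and 95 and 113 at P0.5, without the gap between stages. Per 100 kb the counts over the whole lists came to 11.8, 11.9, 6.78 and 8.28 peaks, against 3.67, 4.54, 2.15 and 2.31 over the genome, of which gene-poor sequence is a large part. Between 2 peaks (Rb1 in P0.5 fibers) and 34 peaks (Cdkn1c in E14.5 fibers) lay in a window. The Cdkn1c window held 30, 34, 12 and 26 peaks in the 4 lists, so that P0.5 fibers exceeded P0.5 epithelium. For Ccnd1 the numbers were 23, 15, 14 and 26. The Rb1 window had 12, 15, 9 and 2, and in P0.5 fibers these were its own promoter and that of Rcbtb2. Cdkn2c had 3 or 4 peaks in every list.

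Peaks covered a median of 17.2% and 22.2% of the 10 gene bodies in epithelium and fibers at E14.5 and of 7.10% and 6.19% at P0.5, against 2.71%, 4.23%, 1.51% and 1.38% over 19631 genes of at least 1 kb. Cdkn1c, a gene of 2.72 kb, was covered to 73.4%, 78.7%, 55.1% and 52.3%, and Rb1, of 133 kb, to between 0.507% and 2.19%. With the first 2 kb of each gene body left out, the medians became 1.3%, 5.12%, 0.214% and 0%, so most of the median coverage came from the first 2 kb. These trimmed values were computed for the members only. The all-gene medians above were not matched for gene length.

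Of the 252 merged regions, 39 were called in all 4 lists (15.5%, 95% Wilson interval 11.5 to 20.5), against 10.9% of all merged regions. Promoters made up most of these: 14 lay at a promoter of the gene itself and 16 at the promoter of another gene. The windows were built around genes that each had a promoter peak in every list. With promoters of other genes left out, 22 of 218 regions were called in all 4 lists. Neither the share of promoters nor this second share was computed over all merged regions. At the other end, 132 regions (52.4%, 46.2 to 58.5) were called in 1 list only, against 59.5%. E14.5 epithelium alone called 38 (15.1%, against 12.9%), E14.5 fibers alone 54 (21.4%, against 29.3%), P0.5 epithelium alone 12 (4.76%, against 4.63%) and P0.5 fibers alone 28 (11.1%, against 12.6%). The intervals cover counting error only. All 3 regions of the Cdkn2c window were called in every list: its own promoter and those of Faf1 and 9630013D21Rik.

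**Figure D3:**
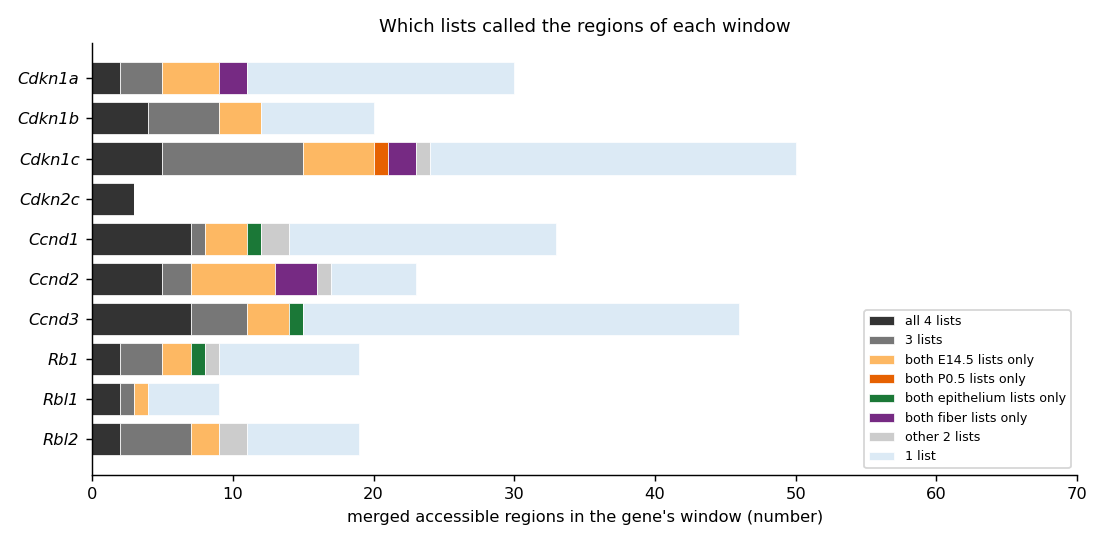
Number of merged accessible regions in the window of each regulator, divided by the lists that called them. The Cdkn1c window holds 50 regions and the Ccnd3 window 46, while the Cdkn2c window holds 3, all of them called in all 4 lists.

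The Cdkn1c window held 8 regions that only the epithelium list of P0.5 lacked. This is 8 of its 50 regions (16%), and 8 of the 13 such regions in all 10 windows, while 2.42% of all merged regions have this pattern. Their middles lay from -49.6 to 22.5 kb from the start site. One of them, at chr7:143462510-143462936, lies at -1.67 kb, and another, at chr7:143463848-143464238, at -2.99 kb. In P0.5 fibers their best peaks ranked from 26.4% to 69.2%, with 4 of the 8 at 69.2%. With peaks limited to a q value under 0.001 the count was 1, and with equal numbers of peaks in each list it was 2, so the count depends on the peak threshold.

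**Figure D4:**
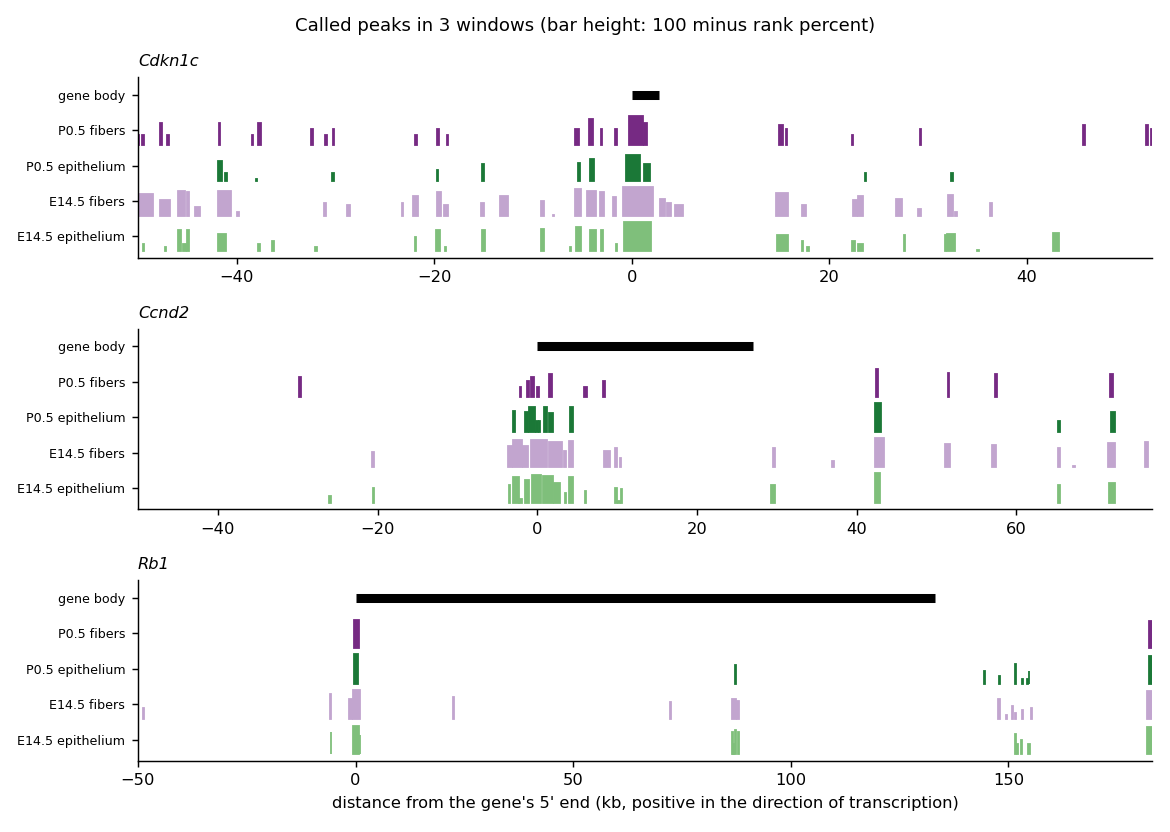
Called peaks in the windows of Cdkn1c, Ccnd2 and Rb1 by distance from the 5' end of the gene in kb, 1 row for each pooled list, with bar height as 100 minus the rank percent. P0.5 fibers have 26 peaks and P0.5 epithelium 12 in the Cdkn1c window, and P0.5 fibers have 2 in the Rb1 window.

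Regions restricted to 1 tissue at both stages were few. In all, 7 regions were called in both fiber lists and in no epithelium list (2.78%, against 2.43% of all merged regions), and 3 in both epithelium lists and in no fiber list (1.19%, against 2.28%). These counts depend on the peak threshold: there were 3 fiber and 4 epithelium regions with a q value under 0.001, and 5 of each with equal numbers of peaks. The fiber regions comprised 3 in the Ccnd2 window, 2 in the Cdkn1c window and 2 in the Cdkn1a window. Both at Cdkn1a lie in the body of Trp53cor1, the noncoding gene also known as lincRNA-p21, at -28.4 and -18.5 kb from the nearest Cdkn1a start. The pair at Cdkn1a ranked between 48.9% and 90.1%, and the pair at Cdkn1c between 48.9% and 80.6%, so both pairs were weak. The 3 epithelium regions lie in the gene bodies of Ccnd1, of Ccnd3 and, in the Rb1 window, of Rcbtb2. The 6 with the best rank in either of their lists, with ties settled by the other list, are shown here as 200 bases around the summit of the better-ranked peak, on the plus strand of GRCm38.p6, with the same motifs in capitals.
Ccnd2 window, fibers, chr6:127100658-127100857 (+): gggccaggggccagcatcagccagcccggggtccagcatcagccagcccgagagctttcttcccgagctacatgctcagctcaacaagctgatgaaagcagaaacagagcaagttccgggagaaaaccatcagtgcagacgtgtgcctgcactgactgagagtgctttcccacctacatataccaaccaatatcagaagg
Ccnd2 window, fibers, chr6:127094663-127094862 (+): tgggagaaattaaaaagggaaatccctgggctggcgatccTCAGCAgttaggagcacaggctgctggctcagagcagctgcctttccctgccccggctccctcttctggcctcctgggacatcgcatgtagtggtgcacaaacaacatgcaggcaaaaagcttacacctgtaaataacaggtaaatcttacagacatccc
Ccnd2 gene body, fibers, chr6:127143204-127143403 (+): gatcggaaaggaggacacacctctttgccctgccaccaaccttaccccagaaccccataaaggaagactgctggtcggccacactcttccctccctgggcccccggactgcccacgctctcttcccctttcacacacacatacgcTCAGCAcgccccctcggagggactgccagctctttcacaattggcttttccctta
Cdkn1c window, fibers, chr7:143431652-143431851 (+): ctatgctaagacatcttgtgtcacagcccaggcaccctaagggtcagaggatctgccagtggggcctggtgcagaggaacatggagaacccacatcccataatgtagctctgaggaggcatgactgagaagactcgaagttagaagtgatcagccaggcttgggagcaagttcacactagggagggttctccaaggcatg
Ccnd1 gene body, epithelium, chr7:144931887-144932086 (+): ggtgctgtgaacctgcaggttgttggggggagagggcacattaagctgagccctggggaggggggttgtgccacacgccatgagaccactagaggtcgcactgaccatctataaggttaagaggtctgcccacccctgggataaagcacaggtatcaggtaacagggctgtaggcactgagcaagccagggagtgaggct
Ccnd3 gene body, epithelium, chr17:47508038-47508237 (+): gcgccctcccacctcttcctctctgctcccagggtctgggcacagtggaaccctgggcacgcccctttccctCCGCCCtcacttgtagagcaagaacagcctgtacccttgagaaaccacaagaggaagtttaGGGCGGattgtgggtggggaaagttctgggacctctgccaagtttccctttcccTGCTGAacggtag

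The strongest of them, in the gene body of Tigar 50.2 kb from the Ccnd2 start, ranked at 23.5% and 21.4% in the fibers of the earlier and the later stage, and none of the motif letters occurred in its 200 bases. The second, also in Tigar, ranked at 25.2% and 26.4% and holds a Maf match at -60 bases from the summit. The region inside Ccnd2 itself, 7.56 kb downstream of its start, ranked at 45.8% and 48.9%. Its printed bases hold a Maf match as well, but they surround the E14.5 summit, at 127143304. The P0.5 summit, at 127143854, lies outside them. Maf letters thus occurred in 2 of the 7 fiber regions, against 28.3% of the 4507 fiber regions of the whole series, a share near that of fiber regions in general. In the Ccnd3 body, the epithelium region 3.09 kb downstream of the upstream start ranked at 55.5% at E14.5 and 42.9% at P0.5 and holds 2 Sp/KLF matches and a Maf match. The Ccnd1 region, 7.84 kb downstream of the start, ranked at 29.0% and 75.7% and holds none. For the fiber region of the Cdkn1c window, the printed bases surround the P0.5 summit, at 143431752, and leave out the E14.5 summit, at 143431987.

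Outside promoters, the strongest peak of a window lay in some cases within 10 kb of a start site and in others far from it. For Rbl2 at E14.5 its summit was 90.5 kb from the start, beyond the gene's end, and for Rb1 in P0.5 epithelium 152 kb, in the body of Rcbtb2. For Cdkn1a it lay at -41.7 kb in both E14.5 lists. Upstream of Ccnd1, a peak with its summit at -3.65 kb, or -3.68 kb in P0.5 fibers, ranked at 6.26% and 6.10% in epithelium and fibers at E14.5 and at 20.5% and 11.4% at P0.5. In P0.5 fibers it was thus stronger than any Ccnd1 promoter peak. Within Ccnd3, a region in the gene body about 6.2 kb downstream of the upstream start ranked at 4.75%, 6.29%, 14.6% and 5.69%, above the upstream start itself in every list. Between 3 and 6 kb upstream of Cdkn1c, 2 regions were called in all 4 lists. The nearer, with its middle at -4.07 kb, ranked at 32.1%, 18.5%, 29.6% and 15.7%, and the farther, at -5.49 kb, at 20.2%, 10.9%, 42.9% and 48.9%. At Cdkn1b, a region at -5.88 kb ranked at 15.6% and 17.1% at E14.5 and was not called at P0.5. At Ccnd2 the region at -3.61 kb ranked at 13.8%, 9.05%, 31.6% and 69.2%.

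In several windows the strongest peak belonged to the promoter of a neighbour. This held in all 4 lists for Aktip in the Rbl2 window (0.246%, 0.0388%, 0.589% and 0.132%), for Tigar in the Ccnd2 window (2.45%, 2.93%, 5.61% and 8.49%) and for Samhd1 in the Rbl1 window (5.31%, 4.97%, 12.3% and 8.49%). In 3 of 4 lists it held for Faf1 in the Cdkn2c window and for Usp49 in the Ccnd3 window. The best peaks of the Cdkn1a, Cdkn1c and Rb1 windows were their own promoters in every list.

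Motif letters were also counted in the 200 bases around the promoter summits. Sp/KLF letters occurred at 9 of the 10 members in each E14.5 list, at 8 in the epithelium and at 6 in the fibers of P0.5, where the best promoter peaks of all genes held them in 61.3%, 59.9%, 64.3% and 59.5%. In epithelium E2F letters occurred at Ccnd1 at both stages and at Cdkn2c at E14.5, and in fibers at Rb1 at both stages and at Ccnd1 at E14.5, which is 1 or 2 of 10 in a list against 9.15% to 9.74% of genes. CHR letters occurred at Rbl2 only, in all 4 lists, which is 1 of 10 against 3.05% to 4.31% of genes. The Ccnd1 match moved out of the window in P0.5 fibers together with the summit.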

How the data were processed

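Nuclei of microdissected lens epithelium and fibers of CD1 mice gave 8 ATAC-seq libraries, 2 in each of 4 groups. Per the labels and the study's methods, the authors trimmed reads with Trim Galore 0.4.1, mapped them to mm10 with Bowtie2 2.3.3.1, removed mitochondrial and duplicated reads with SAMtools 1.2 and Picard 2.1.1, and called peaks with MACS2 2.1 (q value 0.05). The names of the deposited lists and of their peaks call each group's list pooled. The peak names of the newborn lists give the stage as P1, where the labels give P0.5, and the labels were followed. The deposited fold enrichment is a ratio, the summit's pile of pooled reads over a background estimated by MACS2. Ordering by p value gave the same median promoter rank of the members in every list. The deposited −log10 p and q values come from the same calls. Read depth per library cannot be read from the lists.

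Peaks were ranked by fold enrichment within each list, with ties sharing the best rank. RefSeq GRCm38.p6 gave gene bodies and 45756 curated transcripts. Overlaps needed at least 1 bp, and lists were merged at a distance of 10 bp. Python 3.11.15, pandas 2.3.3, numpy 2.4.6, scipy 1.17.1, samtools 1.23.1 and matplotlib 3.10.9 were used, and the steps were tested on simulated data. Pooled lists allow no test across replicates. Wilson intervals are at 95%. Genes were named if they were members, cell type markers or on the pathway list, had a named peak at their promoter or in their body, or were closest in rank. From the pathway list, the 5 genes with the largest spread of rank were singled out. E2f3 and Cdkn2d were added after their values had been seen. The members, lists and sequences were chosen with earlier results of these data known. Alternatives were a q value under 0.001, the 58592 strongest peaks of every list, ordering by p value, other promoter, window, merge and motif widths, all 119253 RefSeq transcripts, leaving out promoters of other genes, and leaving out the first 2 kb of gene bodies.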

Additional observations from a re-analysis of the deposited data

Results flagged for a closer look

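For 4 genes the difference in promoter place between fibers and epithelium had opposite signs at E14.5 and P0.5. The P0.5 difference minus the E14.5 difference was -11.6 points for Cdkn1a (3.46 points at E14.5, -8.10 at P0.5), 3.57 points for Ccnd3 (-1.21 and 2.35), 22.8 points for Rb1 (-3.30 and 19.5) and -12.2 points for Rbl1 (4.95 and -7.23). Each list is a pool of 2 libraries, and the difference between stages was not tested. Of these, 16.7% of genes were as low as or lower than Cdkn1a and 15.3% as low as or lower than Rbl1, 32.0% as high as or higher than Ccnd3 and 2.27% as high as or higher than Rb1.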

How the results depend on the processing

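No paired analysis was possible because the libraries that share a replicate number were pooled within their groups before peaks were called, and for the same reason no replicate could be left out. Other peak thresholds and the order by p value could not move the members' place differences, since they keep the order of the promoter peaks. With other promoter widths or all transcripts, of 60 recomputed tissue differences of single genes 2 changed sign, both for Ccnd1 at P0.5 (-4.64 points with promoters of 1 kb, -7.22 with 5 kb), and of 60 stage differences 0 did. The median promoter rank in E14.5 epithelium was 6.11% with a q value under 0.001, 9.17% with equal numbers of peaks, 6.03% with promoters of 1 kb and 26.2% as place among genes. In E14.5 fibers it was 5.14%, 8.75% and 25.7% under the q value, equal numbers and place, and in P0.5 epithelium 17.5%, 16% and 37.4% under the q value, 1 kb and place. In P0.5 fibers it was 29.0%, 15.2%, 12% and 38.1% under the q value, equal numbers, 5 kb and place. Windows of 100 kb held 258, 312 and 178 peaks in the epithelium and the fibers of E14.5 and the fibers of P0.5, equal numbers left 99 and 96 at E14.5, and the q value left 63 in P0.5 fibers, against 79 in P0.5 epithelium. Regions called in all 4 lists were 22 of 218 without the promoters of other genes, and those called in 1 list 86 of 173 with equal numbers. Epithelium regions were 5 with equal numbers, fiber regions 3 with the q value, and the Cdkn1c regions lacking a P0.5 epithelium call 1 with the q value and 2 with equal numbers. Gene bodies without their first 2 kb were covered to medians of 1.3%, 5.12%, 0.214% and 0%. Around summits, 400 bases held E2F letters at 6 members and CHR letters at 2. The cause of these shifts was not tested beyond the construction of each alternative. The other 58 of 90 recomputed medians and counts stayed within their interval or within 1.5 times. Shared ranks limit the weaker peaks of P0.5 fibers most.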

Other observations

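Over all protein-coding genes with a promoter peak in every list, those whose ranks were most like the ranks of Rbl1 were Adcy6, Afap1l2 and Fbxo17, with mean absolute differences of 0.584, 0.689 and 0.751 points over the 4 lists. For Ccnd2 they were Cyb5b, at 0.580 points, and Uqcr10 and Zmat5, at 0.609 points each. Both genes were taken for their spread of rank within lists of unequal length, the largest of the 10 regulators. On the place among genes their values spread over 7.23 points (Rbl1) and 12.3 points (Ccnd2), less than the 31.2 points of Cdkn1c.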
